A study of Mus musculus with 24 samples.

Results

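The 10 genes described here encode the serine proteases that loosen the outer layer of the epidermis, their main inhibitor and the membrane-bound proteases thought to act above them. They were taken by name, not by their values, from 54087 gene symbols measured in dorsal skin of E18.5 mouse embryos, shortly before birth: the kallikreins Klk5, Klk6, Klk7, Klk8, Klk10, Klk11 and Klk14, the inhibitor gene Spink5, and St14 and Prss8. The embryos were wild type (WT), heterozygous (HET) or homozygous (KO) for a CRISPR/Cas9 deletion of the tandem desmoglein 1 (Dsg1) genes on a C57BL/6 background. HET embryos carried the deletion on 1 allele and KO embryos on both, the lesion was present in every cell of the animal, and no treatment was given. The line came from 1 founder animal. RNA was poly(A)-selected from whole dorsal skin, so epidermis, dermis and other tissue were mixed. In such bulk samples fewer cells of a type and less RNA per cell cannot be told apart.

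Each genotype had 8 libraries. Libraries that carried the same title number and genotype were summed, which gave 15 columns, 5 per genotype, called replicates 1 to 5; the labels do not say that numbers are separate embryos, so p-values measure the spread between these columns. Levels are given as CPM, the counts of a gene relative to its column's total after correction by trimmed mean of M-values (TMM) factors. Depth ran from 8.98 M to 20.96 M counts per library (M, mega) and from 15.3 M to 33.7 M per column. The summed Dsg1 level was 723 to 933 CPM in WT, 371 to 492 CPM in HET and 0.103 to 0.902 CPM in KO columns, in the order of the labels. Keratinocyte markers were high in every column, with 54684 to 101958 CPM for 8 suprabasal and granular genes and 5666 to 7785 CPM for 6 basal genes. In WT replicate 2 the pair of libraries stood apart from each other: Xist was at 0.264 CPM in one and 567 CPM in the other, and 4 Y-linked genes summed to 325 CPM and 0.155 CPM. These are the patterns of a male and of a female sample, so that column appears to mix more than 1 embryo. The members differed between those libraries by a median of 0.19 on the log2 scale (largest 0.55, Klk7), against 0.06 for the other 8 numbers with a pair of libraries, and the KO against WT estimates and the ratios were also computed without that column; shares, correlations and gene lists were not.

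Kallikreins are secreted trypsin-like or chymotrypsin-like proteases made as inactive precursors. In the granular layer KLK5 can activate itself and other kallikreins. Between them, though not each alone, KLK5, KLK7 and KLK14 cut desmoglein 1, desmocollin 1 and corneodesmosin. These are the proteins that hold cornified cells together until they are shed. LEKTI, the product of Spink5, inhibits KLK5, KLK7 and KLK14, and its loss causes Netherton syndrome, in which the stratum corneum detaches. Matriptase (St14) and prostasin (Prss8) are membrane serine proteases needed for the epidermal barrier, and matriptase is able to activate pro-kallikreins.

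The kallikreins lie side by side on 1 strand of chromosome 7, in the order Klk14, Klk13, Klk12, Klk11, Klk10, Klk9, Klk8, Klk7, Klk6, Klk5. To show what stands before genes that lie close together but differ widely in level, upstream sequence of members is printed. Klk9, between Klk10 and Klk8, is not a member and its window is not shown. The 250 bases upstream of RefSeq transcript starts (mouse build GRCm38.p6, plus strand) follow for Klk10, Klk8, Klk7, Klk6 and Klk5, with GTTAAAA in capitals.
Klk10, chr7:43780804-43781053: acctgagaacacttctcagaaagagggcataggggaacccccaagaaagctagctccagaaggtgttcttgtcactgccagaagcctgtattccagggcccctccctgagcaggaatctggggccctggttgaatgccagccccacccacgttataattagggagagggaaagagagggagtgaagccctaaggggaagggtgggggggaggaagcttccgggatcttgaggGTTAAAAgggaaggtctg
Klk8, chr7:43797327-43797576: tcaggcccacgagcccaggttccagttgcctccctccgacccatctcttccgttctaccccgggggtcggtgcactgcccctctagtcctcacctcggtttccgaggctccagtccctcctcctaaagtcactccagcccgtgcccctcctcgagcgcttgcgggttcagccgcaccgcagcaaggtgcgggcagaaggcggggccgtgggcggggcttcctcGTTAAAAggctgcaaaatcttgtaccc
Klk7, chr7:43811044-43811293: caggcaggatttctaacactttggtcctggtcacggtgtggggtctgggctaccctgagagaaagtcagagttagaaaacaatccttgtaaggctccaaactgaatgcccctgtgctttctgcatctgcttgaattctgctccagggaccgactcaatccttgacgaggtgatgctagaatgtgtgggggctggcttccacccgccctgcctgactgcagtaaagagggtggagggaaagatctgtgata
Klk6, first start, chr7:43824294-43824543: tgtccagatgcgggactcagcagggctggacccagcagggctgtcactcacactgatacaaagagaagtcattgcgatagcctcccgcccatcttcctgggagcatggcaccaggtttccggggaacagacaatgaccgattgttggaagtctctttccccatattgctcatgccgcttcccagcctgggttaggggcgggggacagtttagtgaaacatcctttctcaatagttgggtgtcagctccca
Klk6, second start, chr7:43825200-43825449: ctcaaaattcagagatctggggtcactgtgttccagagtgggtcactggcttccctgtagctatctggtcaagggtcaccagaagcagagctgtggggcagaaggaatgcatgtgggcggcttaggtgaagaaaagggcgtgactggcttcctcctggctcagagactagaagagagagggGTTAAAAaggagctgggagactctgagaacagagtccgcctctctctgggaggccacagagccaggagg
Klk5, chr7:43842019-43842268: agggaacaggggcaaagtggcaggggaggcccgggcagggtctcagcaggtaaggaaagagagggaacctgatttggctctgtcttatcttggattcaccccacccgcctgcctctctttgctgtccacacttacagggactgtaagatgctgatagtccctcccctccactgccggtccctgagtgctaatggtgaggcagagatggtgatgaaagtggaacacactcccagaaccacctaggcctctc
A TATA-like GTTAAAA (reverse complement TTTTAAC), chosen after the sequences had been read, was found upstream of 3 of the 7 kallikreins, Klk10, Klk8 and the second start of Klk6. Its first base lay 18, 27 and 69 bases before the start, respectively. On either strand it occurs in 3.04% of 32841 promoter windows of this length, which is no test for a motif picked from these sequences. The AP-1 motif TGANTCA, which is its own reverse complement, was in none of the 9 windows of these 7 genes and is in 6.75% of all windows. The highest (Klk7) and second highest (Klk5) members had neither motif in these windows, nor had Klk11 and Klk14, which were lower. A link to level was not tested.

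Levels per length differed widely, also between neighbours on the chromosome. In WT, Klk7 was highest with 388 ± 28.6 CPM per kilobase of exon (SD, n = 5, as for all values with ± here), and it was 2.96-fold above Klk5 (131 ± 13.4) with no overlap between columns. Spink5 (93.1 ± 19.2) and Klk8 (92.1 ± 5.91) followed. Klk5 overlapped Spink5 in its range over columns, and Spink5 overlapped Klk8. Prss8 (28.01 ± 5.61) and Klk11 (25.7 ± 3.53) formed the next overlapping pair, and St14 (11.5 ± 0.53) and Klk10 (10.8 ± 0.83) the pair after it. Klk6 was at 1.05 ± 0.40 CPM per kilobase, 10.3-fold below Klk10. With the longest transcript in place of all exons St14 came to 24.6 CPM per kilobase, so its place in this order depends on the transcript model.

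**Figure D1:**
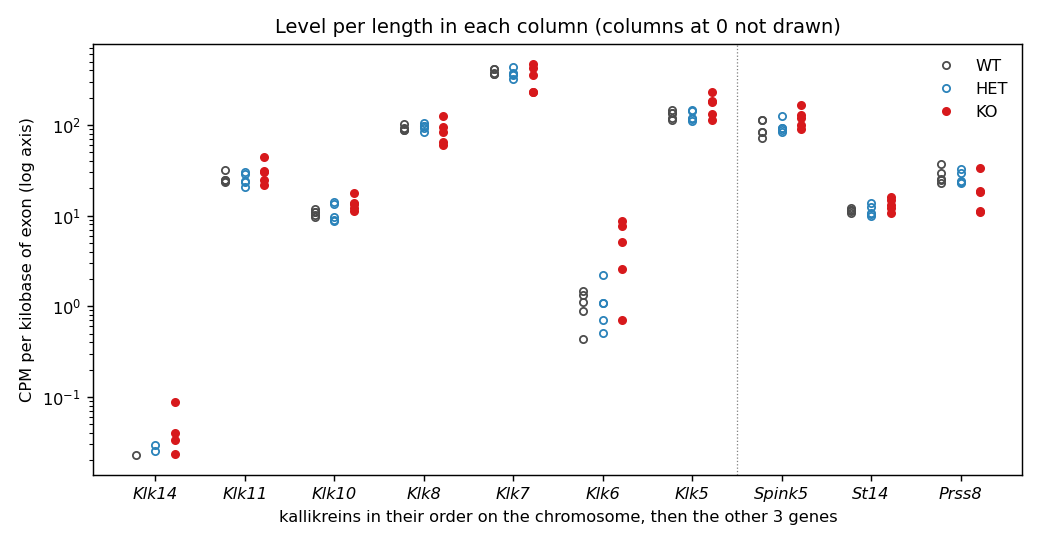
Level of each gene per kilobase of exon (log axis) in every column of WT, HET and KO skin, with the kallikreins in chromosome order to the left of the dotted line. In WT, Klk7 stands at 388 CPM per kilobase and its neighbour Klk6 at 1.05, and most KO columns of Klk6 lie above its WT columns.

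Klk14 was close to undetected. It had 1 count in all WT columns together, 2 in HET and 6 in KO, with at most 3 in any column, a level that a count of 0 also allows. It was not tested, and no fold is given; the other 9 members passed the filter on low counts. The exons of Klk14 (287 bases) and Klk8 (382 bases) overlap an opposite-strand transcript, 2310002F09Rik, which was not analysed here. The libraries preserved strand, but the strand setting of the counting was not given in the sources used here.

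Skin without Dsg1 was compared with WT to ask whether the desquamation proteases change with the loss of a protein that some of them cut. None of the 9 tested members reached an adjusted p of 0.1 (edgeR quasi-likelihood test, Benjamini-Hochberg adjustment over 17094 genes), where 0.614% of all tested genes were higher in KO and 0.538% lower, and with the added limit of a log2 fold change of 1 the shares were 0.135% and 0.187%. At an unadjusted p below 0.05 there were 4 higher members, Klk5, Klk6, Klk10 and Spink5, and 1 lower, Prss8, against 10.1% and 9.18% of all genes. At the adjusted p DESeq2 passed 1 member, Klk6, and limma-voom 0, against 8.49% and 2.89% of all genes in either direction. Without WT replicate 2, all 9 members kept the sign of their estimate, their log2 fold changes moved by at most 0.04 (Prss8), and their edgeR adjusted p ran from 0.219 to 0.756. The median log2 fold change of the 9 was 0.24, against -0.01 over all genes. For the 8 suprabasal and granular markers the median was 0.31, for the 6 basal markers 0.16 and for 6 dermal fibroblast markers -0.24. The KO and WT columns overlapped for every tested member, where 1.61% of all genes were higher and 1.76% lower without overlap.

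**Figure D2:**
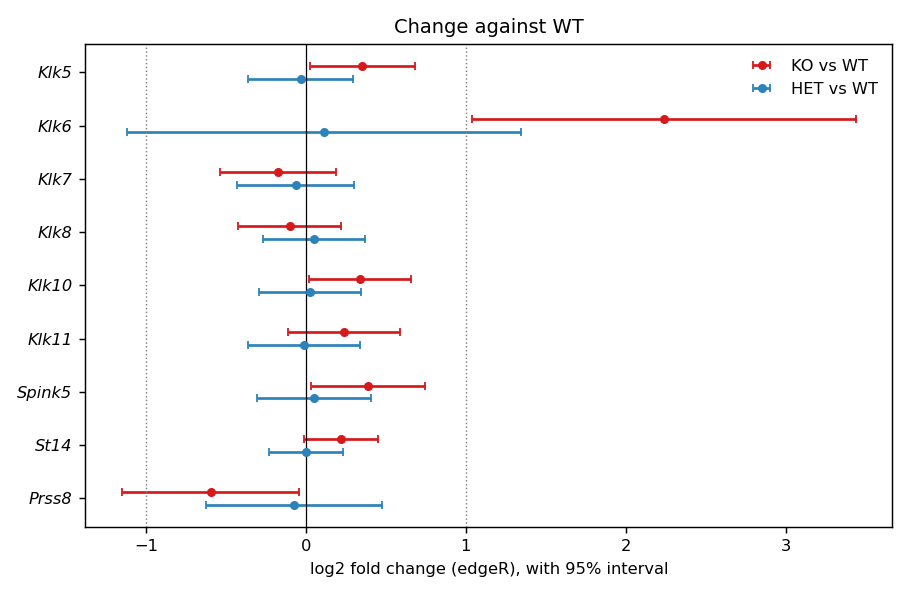
Log2 fold change of each tested member against WT with its 95% interval (edgeR), for KO in red and HET in blue; dotted lines mark the fold limit. Klk6 in KO lies at 2.24 and Prss8 at -0.59, while all HET estimates lie between -0.07 and 0.11.

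Klk6, a trypsin-like kallikrein also known from brain, had the largest difference. In WT it was at 1.36, 1.68, 2.21, 0.65 and 2.01 CPM in replicates 1 to 5. In HET it was at 1.66, 3.39, 1.07, 1.63 and 0.77 CPM. In KO it was at 7.75, 11.7, 1.06, 13.1 and 3.90 CPM. Of the 5 KO columns 4 were thus above all WT columns, and KO replicate 3 lay inside the WT range. The difference from WT was 4.72-fold, or 2.24 on the log2 scale (SE 0.56, 95% interval 1.04 to 3.44), with an adjusted p of 0.101 by edgeR that missed the threshold. These values rest on 18 to 70 counts per WT column and 25 to 318 per KO column. The estimate was above 0 under all 30 alternatives (1.83 to 2.52) and its adjusted p was at or below 0.1 under 11 of them, with a range of 0.00315 to 0.551. Without KO replicate 3 the log2 fold change was 2.52 (adjusted p = 0.0178), and without WT replicate 2 it was 2.26 (adjusted p = 0.219, edgeR for both).

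The KO column with the most Klk6, replicate 4, was also the only one with a high sum of 5 keratins. These were listed as markers of the periderm, the transient outermost fetal layer. Their sum was 346 CPM in that column, 8.86 to 14.2 CPM in the other KO columns and 9.42 to 20.2 CPM in WT. Krt8 and Krt18 were at 106 and 93.5 CPM in KO replicate 4. Krt4, also on the list, did not rise. It was at most 2.68 CPM in KO and 1.38 to 3.98 CPM in WT (log2 fold change -0.46, edgeR adjusted p = 0.413). Of the 5 genes, 0 passed the adjusted p and their median log2 fold change was 2.54. Whether that column held more periderm was not tested. Without KO replicate 4 the Klk6 log2 fold change was 1.95 (SE 0.56, edgeR adjusted p = 0.226).

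**Figure D3:**
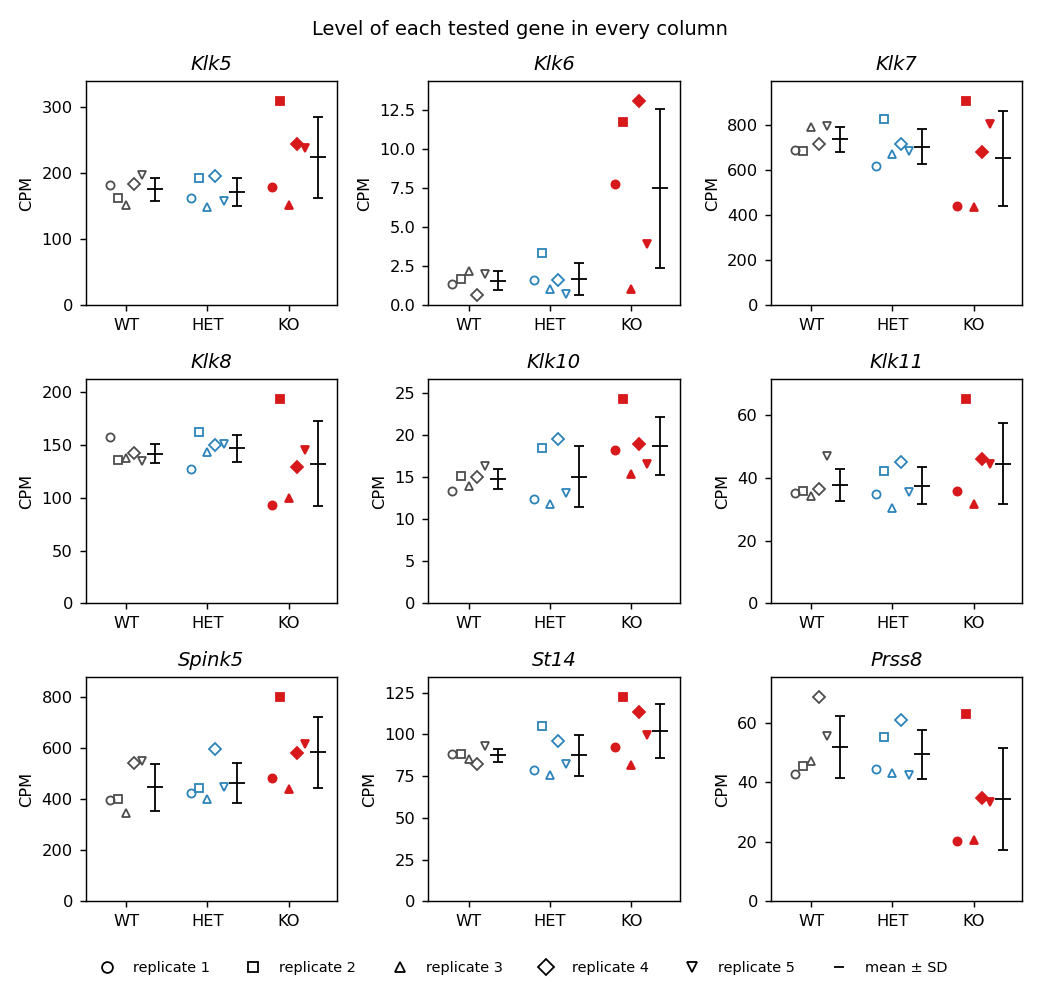
CPM of each tested member in all 15 columns, with a symbol for each replicate and the mean ± SD of each genotype to its right; axes start at 0. KO columns reach 11.7 and 13.1 CPM of Klk6, and KO replicate 2 is the highest KO column in every panel but that of Klk6.

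The genes whose pattern over the 15 columns was most like that of Klk6, after genotype means were subtracted, were Areg (r = 0.93), Krt16 (0.93) and Tmem229b (0.91). Areg encodes an EGF receptor ligand and Krt16 a keratin of stressed epidermis. The correlations are descriptions over columns that share depth and tissue make-up, and Spearman's rho was 0.88, 0.91 and 0.87. Krt16 was at 440, 334, 54.5, 420 and 176 CPM in KO replicates 1 to 5, against 15.4 to 37.7 in WT. Its log2 fold change was 3.52 (SE 0.60, edgeR adjusted p = 0.0333), where 0.614% of all genes were higher at an adjusted p of 0.1. KO replicate 3, with WT-like Klk6, was again the lowest, although it stayed above WT for Krt16. In HET the highest column for Klk6, replicate 2, was also highest for Krt16 at 86.7 CPM, where the other HET columns had 18.2 to 29.1. Areg was at 1.95, 3.50, 0.47, 3.19 and 1.67 CPM in KO and 0.29 to 1.39 CPM in WT, with an edgeR log2 fold change of 1.19 (adjusted p = 0.198). Tmem229b had an estimate of the opposite sign to Klk6 between genotypes. Its mean was 20.7 CPM in KO and 37.6 CPM in WT (log2 fold change -0.86, edgeR adjusted p = 0.178).

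**Figure D4:**
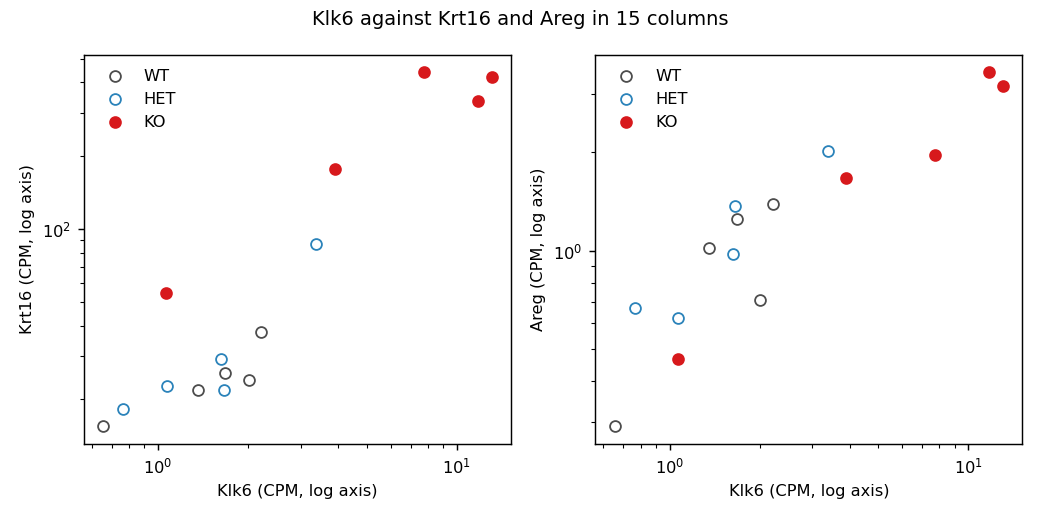
Klk6 against Krt16 (left) and Areg (right) in 15 columns, CPM on log axes, colored by genotype. KO columns extend to the upper right, and the KO column with 1.06 CPM of Klk6 has 54.5 CPM of Krt16 and 0.47 CPM of Areg, the lowest of the KO columns for all 3.

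The main desquamation proteases differed in their estimates, and none passed the test. Klk5, the trypsin-like initiator, was at 182, 162, 152, 183 and 196 CPM in WT and at 178, 308, 151, 244 and 237 CPM in KO. Of the KO columns 3 were above all WT columns and 1 was just below. Its log2 fold change was 0.35 (SE 0.15, edgeR adjusted p = 0.230). Klk7, the chymotrypsin-like protease that supplies most kallikrein transcript, was at 690, 685, 791, 713 and 795 CPM in WT and at 438, 902, 437, 679 and 801 CPM in KO. KO columns of Klk7 lay on both sides of the WT range, with 2 above and 3 below it. Its log2 fold change was -0.17 (95% interval -0.54 to 0.19, edgeR adjusted p = 0.590). Klk8, a trypsin-like protease also called neuropsin, had 157, 136, 138, 143 and 135 CPM in WT and 93.7, 193, 99.9, 130 and 145 CPM in KO, with 1 KO column above and 3 below all WT columns. Its log2 fold change was -0.10 (95% interval -0.42 to 0.22, edgeR adjusted p = 0.730).

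Klk10 and Klk11 are kallikreins of the upper epidermis with less defined substrates. Klk10 was at 13.3 to 16.3 CPM in WT and 18.3, 24.2, 15.3, 18.9 and 16.6 CPM in KO, with 4 KO columns above WT (log2 fold change 0.34, SE 0.15, edgeR adjusted p = 0.237). Klk11 ranged from 34.1 to 46.8 CPM in WT and from 31.6 to 64.9 CPM in KO (log2 fold change 0.24, SE 0.17, edgeR adjusted p = 0.427). For Klk11, 1 KO column was above and 1 below all WT columns.

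Summed over the 7 kallikreins the level was 1106 ± 58.8 CPM in WT, 1075 ± 114 in HET and 1078 ± 326 in KO. The composition of the sum differed more than its size. Klk7 made up 66.4% ± 2.23 of the counts of these 7 in WT and 60.1% ± 2.67 in KO, Klk5 15.8% ± 1.44 and 20.9% ± 1.52, and Klk6 0.14% ± 0.05 and 0.68% ± 0.44. Klk9 and Klk13, at means of 45.3 and 55.5 CPM in WT, are not in this sum. Within a column the ratio of Klk7 to Klk5 was 3.79, 4.24, 5.21, 3.89 and 4.05 in WT, 3.66 to 4.52 in HET, and 2.45, 2.93, 2.90, 2.79 and 3.38 in KO. All 5 KO columns lay below all WT and HET columns. This ratio was formed after the values were seen and has no test; over all genes, the ratio to Klk5 was lower in KO without overlap with WT or HET for 1.41%.

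Spink5, which encodes the inhibitor, was at 396, 400, 345, 539 and 547 CPM in WT and at 482, 797, 438, 579 and 616 CPM in KO. Of the KO columns 3 were above all WT columns and none below. Its log2 fold change was 0.39 (SE 0.17, 95% interval 0.03 to 0.74, edgeR adjusted p = 0.228). Set against kallikreins within the same column, which needs no library scaling, Spink5 separated KO from WT for some and not for others. Of the LEKTI targets named above, this held for Klk7 and not for Klk5, and Klk14 was close to undetected. Klk7 to Spink5 was 1.74, 1.71, 2.29, 1.32 and 1.45 in WT and 0.91, 1.13, 1.00, 1.17 and 1.30 in KO. Klk8 to Spink5 was 0.40, 0.34, 0.40, 0.27 and 0.25 in WT and 0.19, 0.24, 0.23, 0.22 and 0.24 in KO. For each of these ratios all 5 KO columns were below all WT columns, with mean differences of -0.61 and -0.53 on the log2 scale. The sum of the 7 kallikreins to Spink5 was 2.56 ± 0.49 in WT, 2.36 ± 0.34 in HET and 1.83 ± 0.18 in KO, again with 5 of 5 KO columns below WT and 3 of 5 below both WT and HET. The share of all genes whose ratio to Spink5 was lower in KO than in WT without overlap was 3.17%, and no test was made of these ratios.

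**Figure D5:**
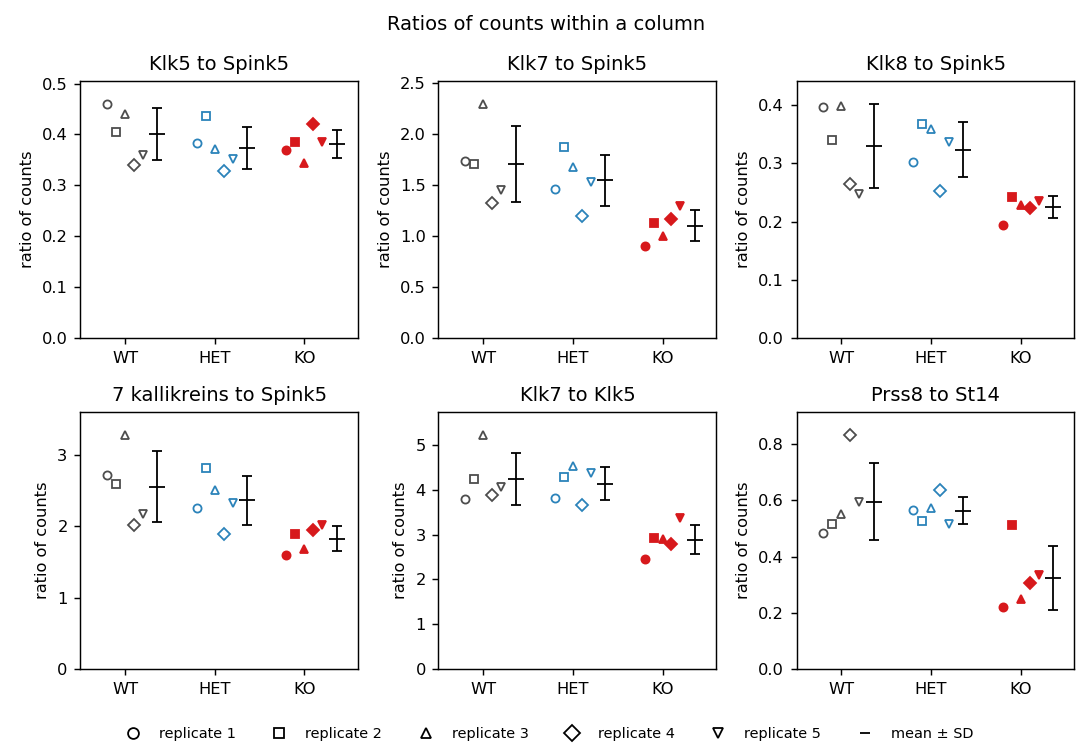
Ratios of counts within each column, with a symbol for each replicate and the mean ± SD to its right; axes start at 0. For Klk7 to Spink5, Klk8 to Spink5 and Klk7 to Klk5 the 5 KO columns lie below all WT columns, while Klk5 to Spink5 overlaps fully.

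The ratios of Klk5, Klk10 and Klk11 to Spink5 overlapped between genotypes. Klk5 to Spink5 was 0.40 ± 0.05 in WT and 0.38 ± 0.03 in KO, a mean log2 difference of -0.06, and for Klk10 and Klk11 the differences were -0.06 and -0.18. Klk6 to Spink5 differed by 1.53, with 3 of 5 KO columns above all WT columns. With each column left out in turn the difference for the 7 kallikreins stayed between -0.55 and -0.37, and without WT replicate 2 it was -0.46, with -0.61 for Klk7 and -0.51 for Klk8.

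The membrane proteases had estimates of opposite sign, and neither passed the test. Prss8 was at 42.8, 45.5, 47.2, 68.5 and 55.3 CPM in WT, at 42.5 to 61.0 CPM in HET, and at 20.4, 62.7, 20.6, 34.6 and 33.4 CPM in KO. Of the KO columns 4 were below all WT and HET columns, and KO replicate 2 was above all HET columns. The log2 fold change against WT was -0.59 (SE 0.26, 95% interval -1.15 to -0.04, edgeR adjusted p = 0.234). The estimate was below 0 under all 30 alternatives (-0.93 to -0.45). Its adjusted p was at or below 0.1 under only 3 of them, with a range of 0.0295 to 0.692. Among those 3, the log2 fold change without KO replicate 2 was -0.93 (SE 0.19, edgeR adjusted p = 0.0410). With skeletal muscle genes as a covariate it was -0.82 (edgeR adjusted p = 0.0295). Prss8 shares 122 exon bases with the opposite-strand gene Kat8, whose log2 fold change was -0.03 (adjusted p = 0.880).

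St14 was at 88.1, 88.1, 85.5, 82.3 and 93.3 CPM in WT and at 92.5, 122, 82.0, 113 and 99.8 CPM in KO, with 3 KO columns above WT and 1 just below. The log2 fold change was 0.22 (SE 0.11, edgeR adjusted p = 0.278). Prss8 to St14 was 0.60 ± 0.14 in WT, 0.56 ± 0.05 in HET and 0.33 ± 0.11 in KO. Of the 5 KO columns 4 were below all WT and HET columns; at least 4 KO columns were below all WT columns in the ratio to St14 for 17.6% of all genes. This ratio, too, was formed after the values were seen.

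KO columns differed among themselves more than WT columns did. Of the 9 members, 8 had a larger SD of log2(CPM + 1) in KO than in both other genotypes, Klk10 being the exception, where 55.0% of 10628 genes with a mean of 10 CPM or more had this. Klk6, among the 8, had a mean below 10 CPM in each genotype. The SD in KO was 4.71 times that in WT for Klk8, 4.62 times for Klk7, 3.47 times for St14 and 1.14 times for Spink5, with a median of 1.23 over the 10628 genes. Among KO columns, replicate 2 ranked first for 8 of 9 members, which held for 21.7% of those genes, and KO replicate 3 was among the lowest 2 for 9 of 9, against 36.7%. The sum of the 8 suprabasal and granular markers was 101958 CPM in KO replicate 2 and 68596 to 75855 in the other KO columns; its part in the result was not tested. Without KO replicate 2 the log2 fold changes were 0.21 for Klk5, 0.25 for Spink5, 0.22 for Klk10, 0.06 for Klk11, 0.15 for St14, -0.32 for Klk7, -0.28 for Klk8 and 2.02 for Klk6, beside the -0.93 given for Prss8.

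Correlations between members were described over all columns and within each genotype. After genotype means were subtracted, correlations of log2(CPM + 1) over the 15 columns ran from 0.31 (Klk6 and Spink5) to 0.94 (Klk5 and Klk11), and Klk7 and Klk8, adjacent on the chromosome, had r = 0.90. Over the 5 columns of a genotype, 11 of the 36 pairs of tested members had a negative r in WT (range -0.76 to 0.85), and 0 of 36 in HET (0.10 to 0.98) or KO (0.48 to 0.99). For Klk7 and Klk8 r was -0.54 in WT, 0.92 in HET and 0.96 in KO. These are descriptions over columns that share depth and tissue make-up, with no test of the difference between genotypes. The 3 genes outside the members most like Klk7 were Glrx, Serpina12 and Il1f5 (r = 0.95 to 0.97), and those most like Klk8 were Asprv1, Crct1 and RP23-359F5.1 (0.95 to 0.96). Serpina12 encodes vaspin, a serpin that inhibits KLK7, and Asprv1 a protease that cuts profilaggrin. Klk5 was closest to RP23-211P15.6, Rab5a and Krt23 and Klk11 to Golga1, Rab5a and Lrrc28. For Klk10, Arhgap24 and Ank were among the 3 closest. Spink5 was closest to Gjb6, Pyroxd1 and Agpat5, and Prss8 to Sgpl1, Eps8l1 and Rab11fip1. For St14, Fam110a was among the 3 closest.

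HET skin was compared with WT to ask whether 1 copy of Dsg1 is enough to keep these levels. Among the 9 tested members 0 reached an adjusted p of 0.1 with edgeR, DESeq2 or limma-voom, and 0 an unadjusted p below 0.05 with edgeR, where 0.825% of genes were higher and 0.755% lower at that unadjusted p and 0.0% passed the adjusted one. With DESeq2 0.0176% of all genes passed the adjusted p, and with limma-voom 0.0%. Log2 fold changes ran from -0.07 (Prss8) to 0.11 (Klk6). For the 8 members other than Klk6 the 95% intervals lay between 0.648-fold and 1.39-fold. For Klk6 the interval reached from -1.12 to 1.35 on the log2 scale.

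KO against HET, which shares the KO columns with the comparison above, gave 0 of 9 members at an adjusted p of 0.1 with edgeR, 2 at an unadjusted p below 0.05 (Klk5 and Klk6) and 1 with DESeq2 (Klk6), against 0.333% of all genes at the adjusted p and 8.17% higher and 7.87% lower at the unadjusted one. DESeq2 passed 4.62% of all genes here, and limma-voom 0.456%. Klk6 differed by 2.13 on the log2 scale (SE 0.56, edgeR adjusted p = 0.150), Prss8 by -0.52 (SE 0.26, adjusted p = 0.338) and Klk5 by 0.39 (SE 0.15, adjusted p = 0.246).

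Among the 6 other kallikreins looked up, only Klk9 and Klk13 passed the filter on low counts, and 0 of these 2 reached an adjusted p of 0.1. Klk9 was at 26.7, 106, 12.8, 60.1 and 41.0 CPM in KO and 39.4 to 52.7 CPM in WT, so it spread to both sides of WT like its neighbor Klk8. Log2 fold changes were 0.12 for Klk9 and -0.05 for Klk13. Klk15 had no count in any column.

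Of 12 other protease inhibitor genes looked up, A2ml1 was not analysed here and 8 of the other 11 passed the filter on low counts. At an unadjusted p below 0.05 (edgeR), 4 were higher than WT and 1 lower, against 10.1% and 9.18% of all genes. At the adjusted p 1 of the 8 rose and 0 fell, where 0.614% of all genes were higher and 0.538% lower. Slpi, which encodes a secreted inhibitor of serine proteases, rose to 1.41 ± 0.89 CPM in KO against 0.14 ± 0.12 in WT. It was above all WT columns in 5 of 5 KO columns, as 1.61% of all genes were. Its log2 fold change was 3.21 (SE 0.55, edgeR adjusted p = 0.0231). Slpi levels were low, at 0 to 0.33 CPM in WT columns and 0.55 to 2.67 CPM in KO columns, so this fold rests on few counts. Wfdc5 was next at 0.45 (adjusted p = 0.211). At the lower end stood Csta1, a cysteine protease inhibitor, at -0.72 (adjusted p = 0.102) and Serpina12 at -0.11 (adjusted p = 0.723). The median of the 8 was 0.28.

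Of 17 other epidermal protease genes 15 were tested and 0 passed the adjusted p with edgeR, with 5 higher and 1 lower at an unadjusted p below 0.05, against 10.1% and 9.18% of all genes. The highest were Prss27 at 1.48 (adjusted p = 0.137) and Prss22 at 1.28 (adjusted p = 0.175), and the lowest Tmprss11f at -0.41 (adjusted p = 0.413) and Asprv1 at -0.34 (adjusted p = 0.392). Prss27 was at 5.20, 7.52, 3.87, 28.4 and 3.86 CPM in KO and 3.19 to 3.68 CPM in WT. Its highest column was KO replicate 4, the one with the high sum of Krt8, Krt18 and the other listed keratins. Prss22 also peaked there, at 21.3 CPM, with 2.71 to 4.83 CPM in the other KO columns.

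All 12 protease targets looked up were tested, and their median log2 fold change against WT was 0.45. At an unadjusted p below 0.05 (edgeR), 7 were higher and 0 lower, against 10.1% and 9.18% of all genes. At the adjusted p 2 rose and none fell, where 0.614% of all genes were higher and 0.538% lower. Dsg3 (2.31, edgeR adjusted p = 1.4e-05) and Dsc1 (0.64, adjusted p = 0.0915) are desmosomal cadherins of the lower and upper epidermis. Dsg3 was at 24.6 ± 3.27 CPM in WT, 47.4 ± 11.8 in HET and 123 ± 31.7 in KO. In HET it was above all WT columns in 5 of 5 columns, as 0.14% of all genes were (log2 fold change 0.94, edgeR adjusted p = 0.9998). F2rl1, which encodes the receptor PAR2 that trypsin-like proteases activate, was at 22.9 ± 1.64 CPM in KO and 16.2 ± 1.86 CPM in WT (0.50, edgeR adjusted p = 0.102). It was picked after its values were seen, and was above all WT columns in 5 of 5 KO columns, as 1.61% of all genes were. Flg, the profilaggrin gene, was at 0.70 (adjusted p = 0.107). Epithelial sodium channel subunits, which prostasin activates, were at 0.61 for Scnn1a, 0.39 for Scnn1b and 0.60 for Scnn1g, none past the adjusted p. The lowest of the list were Tslp at -0.13 and Camp at -0.03.

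Of the lists of cell type markers, 1 of 8 suprabasal and granular genes (Ivl, 0.76, edgeR adjusted p = 0.0231) and 1 of 7 tested neutrophil genes (Cxcr2, 2.31, adjusted p = 0.0891) rose in KO. At that adjusted p 0.614% of all tested genes were higher. All 8 suprabasal and granular genes had a positive estimate. Of these, 5 were higher at an unadjusted p below 0.05 (edgeR), against 10.1% of all genes. Summed neutrophil markers were 20.4 to 91.1 CPM in KO and 13.3 to 24.1 CPM in WT. The largest parts of this sum were S100a9 (mean 19.03 CPM in KO and 5.71 in WT) and S100a8 (14.62 and 4.45). The paper names S100A8 among the genes that IL-17 raises in keratinocytes, so the sum is not specific to neutrophils. Of the 7 tested neutrophil genes 6 had a positive estimate, and the lowest was -0.03. Cxcr2 was low throughout, at 1.46 ± 1.29 CPM in KO and 0.29 ± 0.12 CPM in WT. Whether KO skin held more neutrophils was not tested. None of the basal, hair follicle, dermal fibroblast, skeletal muscle or erythroid genes passed the adjusted p in edgeR.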

How the data were processed

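The authors deposited a table of raw counts, whole numbers per gene symbol, for 24 libraries. Per the labels, libraries were directional and made from poly(A)-selected RNA. The submitters' processing notes name STAR and HTSeq and the human build hg19, although the samples are mouse, and versions, annotation and strand setting are not given in the sources used here. Positions of members come from GENCODE vM21 and RefSeq, both on GRCm38.

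Libraries with the same title number and genotype were summed to 15 columns before testing. The filterByExpr function kept 17094 genes, which held 99.9% of counts. The test was edgeR's quasi-likelihood F test (edgeR 4.0.16, R 4.3.3) with TMM factors, robust dispersions and all 3 genotypes in one fit. Benjamini-Hochberg adjustment over all tested genes was used, with a threshold of 0.1 and, for calls, an absolute log2 fold change of 1. Scripts were tested on simulated data. SE is the absolute log2 fold change divided by the square root of F. Columns held 15.3 M to 33.7 M counts, and 0 counts were taken to allow as many as 3; this covers counting error only. Ratios and correlations were computed in Python 3.11.15 with pandas 2.3.3 and have no test.

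Members and gene lists were chosen with earlier results of these data known. The text names all 10 members, list genes that pass the adjusted p or else the 2 highest and 2 lowest of a list, and the 3 genes most like each member, of which some are not reported here; F2rl1, Flg, Klk9, Krt16 and Areg values per column, the sodium channel genes and the promoter motifs were chosen after values were seen. Alternatives were series of titles alone, 24 separate libraries, number 35 (WT replicate 2) split or replaced, RLE factors, total counts, DESeq2 1.42.0, limma-voom (limma 3.58.1), other filters, 2 genotypes per fit, covariates and leaving out each column. Spink5 lies on chromosome 18 and its promoter is not shown. No upstream sequence of Prss8 or St14 was used.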

Additional observations from a re-analysis of the deposited data

Results flagged for a closer look

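Across 57 groups of 5 columns (members in CPM, their sum and linear ratios, within a genotype), 3 had a column set apart from the other 4 by a gap of more than 0.710 of the whole range, where chance gives about 1 in 20, or 2.85 of 57. Klk11 was highest in WT replicate 5, at 46.8 CPM against 34.1 to 36.5 CPM in the other WT columns, a gap of 0.81 of the range. Without that column the HET estimate for Klk11 changed sign, from -0.01 to 0.08 on the log2 scale. Spink5 was highest in HET replicate 4, at 596 CPM against 401 to 448 CPM in the other HET columns, a gap of 0.76 of the range. Without it the HET estimate for Spink5 went from 0.05 to -0.06. The ratio of Klk10 to Spink5 was highest in HET replicate 2, at 0.0417 against 0.0293 to 0.0328 in the other HET columns, a gap of 0.72 of the range.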

How the results depend on the processing

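No paired analysis was possible because no title number occurs in more than 1 genotype. The count of members called in KO against WT went from 0 to 1, Klk6, in title series 2 alone, with 24 separate libraries, with number 35 as 2 columns or from its series 2 library, with RLE factors, with DESeq2 and with a mean of at least 50 counts, and was 0 to 1 with a column left out. At the adjusted p alone the same settings gave 1, except 24 separate libraries, which gave 6 (Klk5, Klk6, Klk10, Spink5, St14 and Prss8) and count library pairs of 1 number as independent. The skeletal muscle covariate gave 1 (Prss8), and leaving out a column 0 to 2. Columns whose loss brought a member past the adjusted p were WT replicate 4, HET replicate 4 and KO replicate 5 (Klk6 each), KO replicate 3 (Klk5 and Klk6) and KO replicate 2 (Prss8). For KO against HET, calls were 1 with 24 libraries and with DESeq2 and 0 to 1 with a column left out; at the adjusted p alone, 5 members passed with 24 libraries, 1 with DESeq2 and 1 with the muscle covariate, and 0 to 1 with a column left out (Klk6 without KO replicate 3 or 5, Prss8 without KO replicate 2). HET against WT gave 0 throughout.

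Signs changed only in HET against WT, for each tested member, and in KO for Klk8 and Klk7. In HET against WT, series 1 alone gave 0.0229 for Klk5, 0.0517 for Klk7, -0.116 for Klk10, 0.0133 for Klk11 and -0.0287 for Spink5, and series 2 alone -0.00926 for Klk8 and -0.0437 for St14. With 24 libraries it was -0.00133 for Klk10 and -0.000999 for St14, with limma-voom -0.0212 and -0.00863, and with number 35 as 2 columns 0.00481 for Klk11. St14 was also -0.0144 with number 35 from series 2, -0.0111 with total counts, -0.000963 with no filter, -0.0103 with the muscle covariate and -0.0177 with the fibroblast covariate. With a column left out, HET estimates ran from -0.0864 to 0.0169 for Klk5, -0.311 to 0.292 for Klk6, -0.0825 to 0.105 for Klk10, -0.0826 to 0.0793 for Klk11, -0.0597 to 0.135 for Spink5, -0.0716 to 0.0535 for St14 and -0.163 to 0.047 for Prss8. In KO, leaving out a column gave -0.278 to 0.00118 for Klk8 against WT and -0.257 to 0.00446 for Klk7 against HET. The cause was not tested. Ratios to Spink5 moved by less than 1 SD when a column was left out. Depth limits Klk6 and Klk14.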
